A study of Mus musculus with 6 samples.

Results

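The genes described here are 10 contractile and cytoskeletal genes that smooth muscle cells use at high levels: Acta2, Tagln, Myl9, Cnn1, Cnn2, Tpm1, Tpm2, Actg2, Vim and Cald1. They were chosen by name, and all 10 were among the 13734 genes of the deposited table and passed the filter on low values. The cells were white adipocytes made by differentiation of subcutaneous mouse preadipocytes of an immortalized line with floxed Dicer1 alleles (flox/flox) and Cre-ERT2, a Cre recombinase that 4-hydroxytamoxifen switches on. From day 6 of differentiation, 48 h of 4-hydroxytamoxifen at 10 µM served in 3 libraries to delete Dicer1, which encodes the RNase that makes mature microRNAs (DICER_KO), and 3 libraries had ethanol instead (control). The titles call the controls WT, while their genotype label is Dicer1 flox/flox with Cre-ERT2 and vehicle. By that label all 6 carried the floxed alleles and Cre-ERT2 and then received 10 µM isoproterenol, a beta-adrenergic agonist, for 6 h. The cells are 1 immortalized line, and the labels call the libraries biological replicates without saying whether the cultures were differentiated separately, so the p-values below reflect library-to-library spread, which may be technical. Deletion and exposure to 4-hydroxytamoxifen cannot be told apart, since every DICER_KO library and no control had the drug.

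Smooth muscle contracts when myosin, switched on through its regulatory light chain, pulls on filaments of actin that are covered by tropomyosin, calponin and caldesmon. Fibroblasts and preadipocytes also build such filaments into stress fibres, and Acta2 and Tagln are commonly used marks of the myofibroblast state. Many of these genes are switched on by serum response factor (SRF), which binds a short promoter motif called the CArG box and is helped by the MRTF coactivators, which respond to the pool of unpolymerised actin. Adipocyte differentiation is known to go with the loss of stress fibres and a rounder cell shape.

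Promoter sequences are shown for 4 of the genes because SRF sites are the best known feature that contractile genes have in common. RefSeq windows on GRCm38.p6 matched 8 of the 10 genes, in 9 windows, and not Tagln or Actg2. Each is the 250 bases before an annotated start of transcription, on the gene's own strand, read 5′ to 3′. This start need not be the gene's outermost. Only the Vim and Cnn2 windows end just where the range given below for the gene begins. The other windows lie partly or wholly inside that range, and distances count from the window's own start of transcription. Capitals mark an exact CArG box in Myl9 and Cnn2, and in Acta2 stretches that differ from a CArG box by 1 letter. Acta2 lies at chr19:34255374-34255623 (minus strand), Myl9 at chr2:156775214-156775463 (plus strand), Cnn2 at chr10:79988350-79988599 (plus strand) and Tpm2 at chr4:43523555-43523804 (minus strand).
Acta2: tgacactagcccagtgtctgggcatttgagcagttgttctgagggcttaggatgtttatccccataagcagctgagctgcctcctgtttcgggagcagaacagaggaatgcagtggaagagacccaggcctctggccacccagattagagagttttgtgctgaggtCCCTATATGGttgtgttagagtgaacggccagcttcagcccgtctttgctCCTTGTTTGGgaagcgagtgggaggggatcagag
Myl9: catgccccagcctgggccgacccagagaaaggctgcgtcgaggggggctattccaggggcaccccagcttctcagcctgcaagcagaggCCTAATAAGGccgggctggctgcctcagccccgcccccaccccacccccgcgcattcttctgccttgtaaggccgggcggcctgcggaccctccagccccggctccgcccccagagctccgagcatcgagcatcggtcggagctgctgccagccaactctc
Cnn2: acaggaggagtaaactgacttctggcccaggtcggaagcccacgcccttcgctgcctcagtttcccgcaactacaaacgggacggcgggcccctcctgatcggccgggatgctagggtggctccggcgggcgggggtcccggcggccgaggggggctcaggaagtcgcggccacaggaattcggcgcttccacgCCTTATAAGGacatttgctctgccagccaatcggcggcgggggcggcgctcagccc
Tpm2: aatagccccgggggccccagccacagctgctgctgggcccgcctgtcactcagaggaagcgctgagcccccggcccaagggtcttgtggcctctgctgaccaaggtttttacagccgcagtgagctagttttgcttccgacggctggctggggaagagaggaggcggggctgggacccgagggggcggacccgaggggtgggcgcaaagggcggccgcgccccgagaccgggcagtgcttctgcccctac

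An exact CArG box was found in 2 of the 9 windows, beginning 161 bases before the start in Myl9 and 56 bases before it in Cnn2. Of all 32851 RefSeq windows of this length, 1.47% held an exact box, and it reads the same way on both strands. Allowing up to 1 different letter, 5 of the 9 windows had a match, against 18.6% of all windows. These include Acta2, with matches that begin 84 and 34 bases before the start, Tpm1 and the upstream window of Cald1, and Myl9 had such a match, printed in lower case, 99 bases before the start. The letters CATTCC, the core of the MCAT motif bound by TEAD factors, occurred on either strand in 3 of the 9 windows (Acta2, Tpm1 and the upstream window of Cald1) and in 12.6% of all windows. Tpm2, Cnn1 and Vim had none of these matches in their windows, which says nothing about sites elsewhere.

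Libraries held from 13569034 (DICER_KO replicate 1) to 30268077 (DICER_KO replicate 3) reads on the genes of the table. Dicer1 stood at 6.12 ± 0.03 log2 CPM (the log2 of reads scaled to library size) in controls and 5.46 ± 0.03 in DICER_KO (SD, n = 3 each), and fell by 0.66 (SE 0.10, limma adjusted p = 0.0150). Of 10054 genes tested, 44 passed an adjusted p of 0.05 in the test by limma across all genes, with 15 higher and 29 lower in DICER_KO. DICER_KO replicate 3 stood apart: 12 mature adipocyte markers summed to 7676 to 9643 CPM in controls, 12517 and 12352 CPM in DICER_KO replicates 1 and 2, and 3808 CPM in replicate 3. Results are therefore also given without that library, where 1983 genes passed (1257 higher and 726 lower). Of the markers that define smooth muscle cells, the smooth muscle myosin Myh11 had 8 to 23 reads in a library. The calcium store protein Casq2 had 0 to 3. Smtn had 662 to 2464, Lmod1 420 to 1004, Des 100 to 301 and Synpo2 104 to 269, and these passed the filter. Those 6 smooth muscle markers of 8 listed summed to 89.2 to 112 CPM in controls and 73.8 to 95.9 CPM in DICER_KO, and none was at 0 in every library. The markers did not move together. Of the 4 tested, Smtn and Lmod1 had lower means in DICER_KO (differences of -0.32 and -0.05 on the log2 CPM scale). Des and Synpo2 had higher means (0.10 and 0.33), and 0 of the 4 passed. The name smooth-muscle-like is used here for what the 10 genes are known for. Myh11, which defines mature smooth muscle, was near 0, while Smtn and Lmod1 were not. In bulk RNA, fewer cells of a type and less RNA per cell cannot be told apart.

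No member of the group rose or fell in DICER_KO at the adjusted threshold, and 8 of the 10 had lower means there. The median difference of the 10 genes was -0.27 on the log2 CPM scale, and that of all genes tested was 0.02. Among all genes tested 0.438% passed (0.288% lower), and the 0 of 10 members stands beside that share. At an unadjusted limma p under 0.05 there were 3 members, Tagln, Cnn1 and Tpm2, all lower, beside 15.8% of all genes in either direction and 7.35% lower. This count changed with the libraries used. It was 0 without control 1, control 2 or DICER_KO replicate 2 (8.65%, 8.42% and 9.14% of all genes). Without DICER_KO replicate 1 it was 3, but of other genes in part (Acta2, Tpm2 and Actg2, beside 9.36%). Without control 3 or DICER_KO replicate 3 it was 6 (19% and 35%). It was 5 with each library centred on its median (15.3%), 5 with no filter on low values (14%), and 1 with CPM taken over the reads of the table (15.7%). With limma-voom on the recovered reads 0 members passed, and 2 had an unadjusted p under 0.05, beside 0.338% and 14.9% of all genes. A negative difference was found in 47.2% of all genes tested. Every DICER_KO library lay below every control in Tpm2 alone, and 9.81% of all genes tested were separated in that direction and 20.2% in either.

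**Figure D1:**
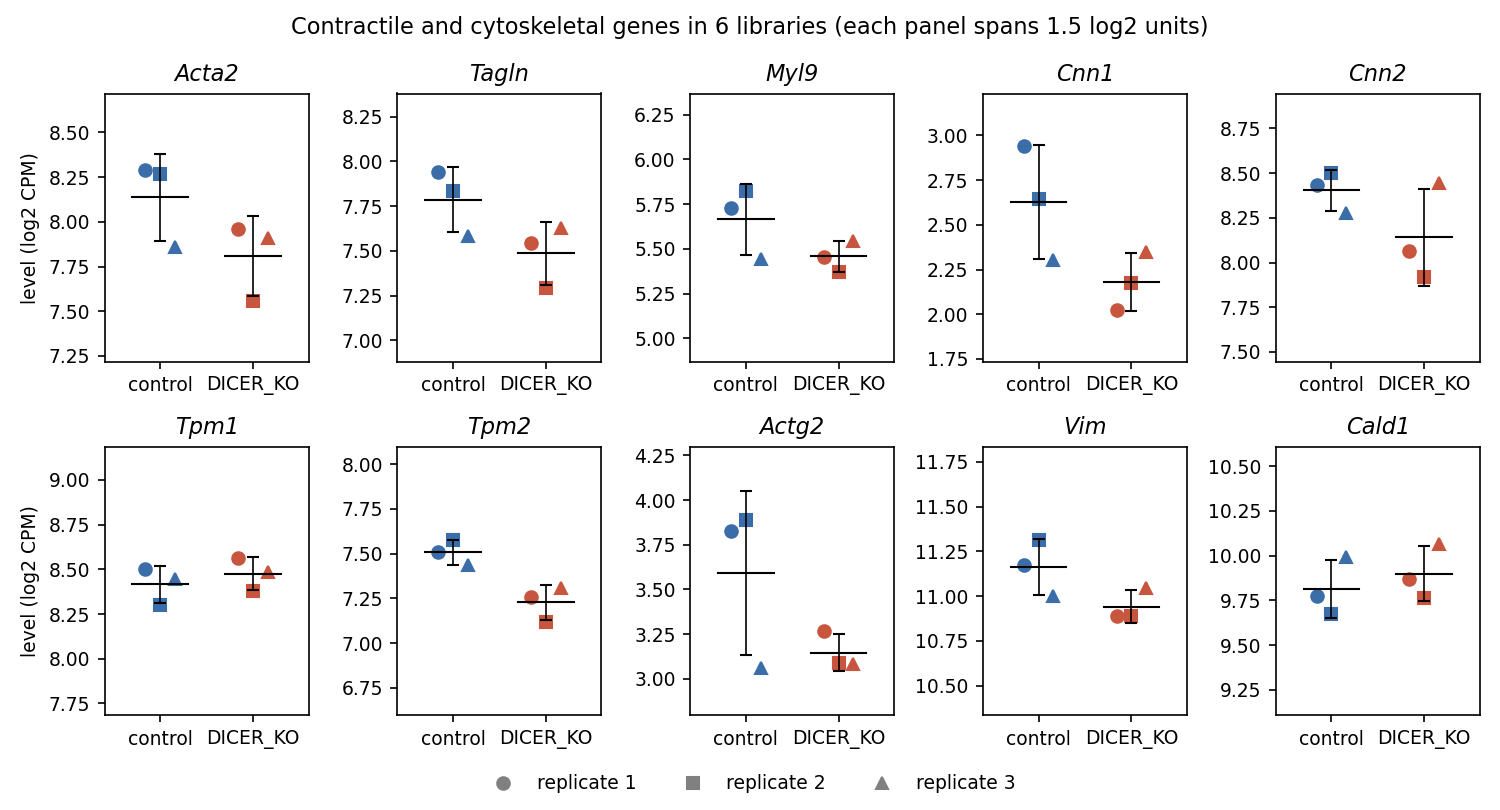
Level (log2 CPM, vertical axis) of each gene in the 3 control and 3 DICER_KO libraries; points are libraries with the shape giving the replicate, lines are means and bars are SD, and each panel spans 1.5 log2 units. Tpm2 is the panel in which the groups do not overlap, and control replicate 3 is the lowest control in 8 of the 10 panels.

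Among the actins, Acta2, the alpha actin of vascular smooth muscle and of myofibroblasts, was plentiful in both groups. Its level was 8.29, 8.27 and 7.86 log2 CPM in controls 1 to 3 and 7.96, 7.55 and 7.91 in DICER_KO replicates 1 to 3. Control replicate 3 lay below DICER_KO replicates 1 and 3, so the groups overlapped. The difference was -0.33 (SE 0.15, 95% interval -0.66 to 0.00, limma adjusted p = 0.316), or 0.796 of the control level. Acta2 (Entrez 11475) lies on chromosome 19, from 34240336 to 34255585, in GRCm38. Actg2, the gamma actin of visceral smooth muscle, was scarce, with 169 to 359 reads a library. It read 3.83, 3.89 and 3.06 log2 CPM in the 3 controls, and in DICER_KO it stood at 3.27, 3.09 and 3.09. Here control replicate 3 was the lowest library of all, and the other controls lay above every DICER_KO library. The difference of -0.45 (SE 0.21, adjusted p = 0.328) was smaller than the range of 0.82 over the control libraries. Actg2 (Entrez 11468) lies on chromosome 6, from 83512909 to 83536251. Actin coding sequences are close copies of each other, and how shared reads were counted is not given in the sources used here, so the split of reads between actin genes is uncertain.

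Tagln, which encodes the actin-bundling protein transgelin (SM22), was likewise plentiful. Its control libraries stood at 7.94, 7.83 and 7.59 log2 CPM, and its DICER_KO libraries at 7.54, 7.29 and 7.63. Only DICER_KO replicate 3 reached into the range of the controls, by passing control replicate 3. The difference was -0.30 (SE 0.13, 95% interval -0.58 to -0.02, adjusted p = 0.298). Tagln (Entrez 21345; chromosome 9, 45929628 to 45936058) fell by 0.37 without DICER_KO replicate 3 (adjusted p = 0.0350).

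The calponins bind actin and hold back myosin; Cnn1 is the form typical of smooth muscle and Cnn2 is found in many cell types. Cnn1 had the lowest level of the 10 genes, with 71 to 215 reads a library. The controls were at 2.94, 2.64 and 2.30 log2 CPM and the DICER_KO libraries at 2.02, 2.17 and 2.35, and control replicate 3 and DICER_KO replicate 3 were nearly equal. The difference was -0.45 (SE 0.20, adjusted p = 0.306). For Cnn2 the control values were 8.44, 8.50 and 8.28 log2 CPM, and those of DICER_KO were 8.07, 7.92 and 8.44. DICER_KO replicates 1 and 2 lay below every control and replicate 3 lay at the control level. Cnn1 (Entrez 12797) lies on chromosome 9, from 22099221 to 22109221, and Cnn2 (Entrez 12798) on chromosome 10, from 79988600 to 79995400. With all libraries Cnn2 differed by -0.26 (SE 0.14, adjusted p = 0.376). It fell by 0.41 once DICER_KO replicate 3 was left out (adjusted p = 0.0104). The log2 ratio of Cnn1 to Cnn2 within a library was -5.77 ± 0.25 in controls and -5.96 ± 0.19 in DICER_KO (SD, n = 3 each), a difference within the spread of the libraries (exact permutation test, p = 0.4, two-sided).

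Tropomyosins lie along actin filaments and gate the access of myosin; Tpm1 and Tpm2 each give muscle and non-muscle isoforms, which a gene-level value adds together. Controls 1 to 3 held Tpm2 at 7.51, 7.57 and 7.44 log2 CPM and DICER_KO replicates 1 to 3 at 7.26, 7.12 and 7.31. All 3 DICER_KO libraries were below all 3 controls. The difference was -0.28 (SE 0.10, 95% interval -0.50 to -0.05, adjusted p = 0.250), and it had the smallest p of the 10 genes. Tpm2 (Entrez 22004; chromosome 4, 43513726 to 43523583) fell by 0.32 without DICER_KO replicate 3 (adjusted p = 0.0317). Tpm1 stood at 8.50, 8.30 and 8.44 log2 CPM in the controls, its DICER_KO values were 8.56, 8.38 and 8.48, and the groups overlapped throughout. Its difference was 0.06 (SE 0.11, adjusted p = 0.783), and the 95% interval ran from -0.18 to 0.30. Tpm1 (Entrez 22003) lies on chromosome 9, from 67022590 to 67049672.

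The log2 ratio of Tpm2 to Tpm1 within a library separated the groups, as Tpm2 alone did. Among all genes tested, 20.2% were separated in either direction. The ratio was -0.99, -0.73 and -1.01 in controls and -1.30, -1.26 and -1.18 in DICER_KO, a difference of -0.34. An exact permutation test gave p = 0.1, the smallest that 3 libraries against 3 can give, and 0.3 after adjustment over the 3 ratios compared. The ratio of Actg2 to Acta2 differed by -0.12 and overlapped between the groups (exact permutation p = 0.5). These ratios compare reads of genes of different length, and only their change between groups is used.

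Cald1 encodes caldesmon, which ties actin to myosin and slows the myosin motor. Its level was 9.77, 9.68 and 9.99 log2 CPM in controls and 9.87, 9.76 and 10.06 in DICER_KO. The replicates numbered 3 were the highest of each group and the groups overlapped. The difference was 0.08 (SE 0.13, 95% interval -0.21 to 0.37, adjusted p = 0.754). Cald1 (Entrez 109624) lies on chromosome 6, from 34598495 to 34775469. Myl9, the regulatory light chain of smooth muscle myosin, had control values of 5.73, 5.82 and 5.44 log2 CPM and DICER_KO values of 5.46, 5.37 and 5.54. Control replicate 3 lay among the DICER_KO libraries, and the difference was -0.21 (SE 0.12, adjusted p = 0.407). Myl9 (Entrez 98932) lies on chromosome 2, from 156775408 to 156781657, and Vim (Entrez 22352) on the same chromosome, from 13574311 to 13582826. Vim encodes vimentin, the intermediate filament of mesenchymal cells, and in fat cells it forms a cage around the lipid droplet. Its control values were 11.17, 11.31 and 11.00 log2 CPM, and DICER_KO gave 10.89, 10.89 and 11.04. DICER_KO replicate 3 passed control replicate 3 and the other DICER_KO libraries were below all controls. The difference was -0.22 (SE 0.13, 95% interval -0.52 to 0.07, adjusted p = 0.415).

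**Figure D2:**
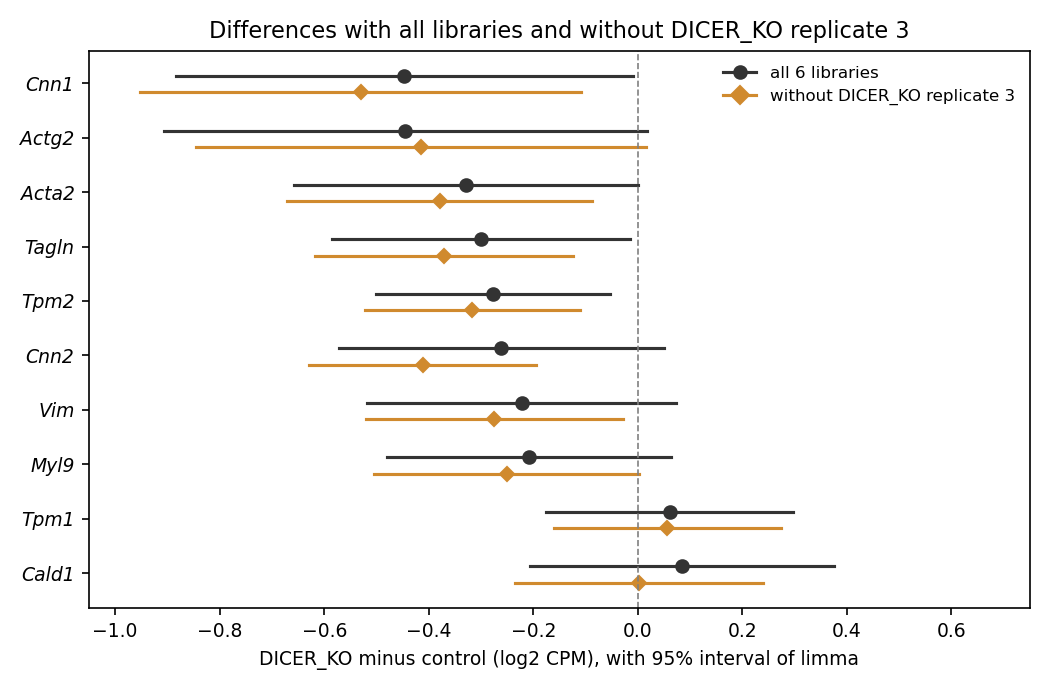
DICER_KO minus control (log2 CPM, horizontal axis) for each gene, with all 6 libraries (circles) and without DICER_KO replicate 3 (diamonds); lines are 95% intervals from limma, not adjusted for the number of genes. With all libraries Cnn1, Tagln and Tpm2 have intervals below 0, and Tpm1 and Cald1 lie slightly above 0.

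Leaving out DICER_KO replicate 3 gave 3 members that fell (Tagln, Cnn2 and Tpm2) and 0 that rose. Over all genes tested 19.7% passed in that comparison, 7.22% lower and 12.5% higher. These p-values carry none of the spread of that library. The members' median difference was then -0.34, while that of all genes was 0.02. Acta2 then differed by -0.38 (adjusted p = 0.0641), Cnn1 by -0.53 (adjusted p = 0.0722), Vim by -0.27 (adjusted p = 0.107), Myl9 by -0.25 (adjusted p = 0.148) and Actg2 by -0.41 (adjusted p = 0.157). Tpm1 differed by 0.06 and Cald1 by 0.00. Leaving out any of the other libraries gave 0 members past the threshold, beside 0.109%, 0.0995% and 0.00995% of all genes without controls 1, 2 and 3 and 0.358% and 0.189% without DICER_KO replicates 1 and 2. With libraries weighted by their estimated quality, 8 members fell (all but Tpm1 and Cald1), beside 19.3% of all genes lower. DICER_KO replicate 3 had the smallest weight (0.203), and controls 1 to 3 had 7.54, 0.64 and 0.49. Control replicate 1 thus made up most of the control mean in that fit, and the estimation of the weights stopped before it converged. Among the fits that leave out 1 library, Acta2 differed most without control replicate 3, by -0.47 (adjusted p = 0.168), and least without DICER_KO replicate 2, by -0.20 (adjusted p = 0.682). Cnn2 differed by -0.15 without DICER_KO replicate 2 (adjusted p = 0.738). Actg2 differed by -0.71 without control replicate 3 (adjusted p = 0.120), and Cnn1 by -0.29 without control replicate 1 (adjusted p = 0.694). Myl9 ranged from -0.13 without control replicate 2 (adjusted p = 0.774) to -0.32 without control replicate 3 (adjusted p = 0.191), and Vim differed by -0.15 without control replicate 2 (adjusted p = 0.771). Cald1 stayed between 0.00 and 0.17 and Tpm1 between 0.00 and 0.11 in these fits.

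The spread within the groups followed the libraries. Control replicate 3 was the lowest control in 8 of 10 genes, all but Tpm1 and Cald1, and DICER_KO replicate 2 was the lowest DICER_KO library in 8. DICER_KO replicate 3 was the highest of its group in 7. The median of the 10 genes, against the mean of the controls, was 0.08, 0.08 and -0.18 in controls 1 to 3 and -0.25, -0.42 and -0.14 in DICER_KO replicates 1 to 3. Control replicate 3 thus lay below DICER_KO replicate 3 by this measure. Mature adipocyte markers did not follow the same order, with medians of 0.59, 0.59 and -1.18 in DICER_KO replicates 1 to 3 and -0.03 to 0.05 in controls. The 11 tested preadipocyte and fibroblast markers had medians of -0.24, -0.20 and -0.56 in DICER_KO; 1 of them, Col3a1, fell with all libraries and 0 rose. Without DICER_KO replicate 3, 5 of these 11 markers fell and 0 rose, and 9 of the 12 mature adipocyte markers rose and 0 fell. Over all genes tested 7.22% were lower and 12.5% higher in that comparison. That library was set apart by its low adipocyte markers, so leaving it out raises their difference by construction. Summed over the 13 preadipocyte and fibroblast markers in the table, the level ran from 10153 to 11554 CPM in controls and from 5900 to 7550 CPM in DICER_KO. The matrix genes Col1a1, Col3a1, Col1a2 and Dcn had the highest levels of the list and weigh most in this sum. They differed by -0.70, -1.44, -0.36 and -0.81. Of the 11 tested, 10 had lower means in DICER_KO, but Pdgfra, Ly6a and Cd34 differed by only -0.06, -0.05 and -0.04, and S100a4 by 0.05. Whether the share of adipocytes or of preadipocytes in a culture has a part in the contractile genes' values was not tested.

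**Figure D3:**
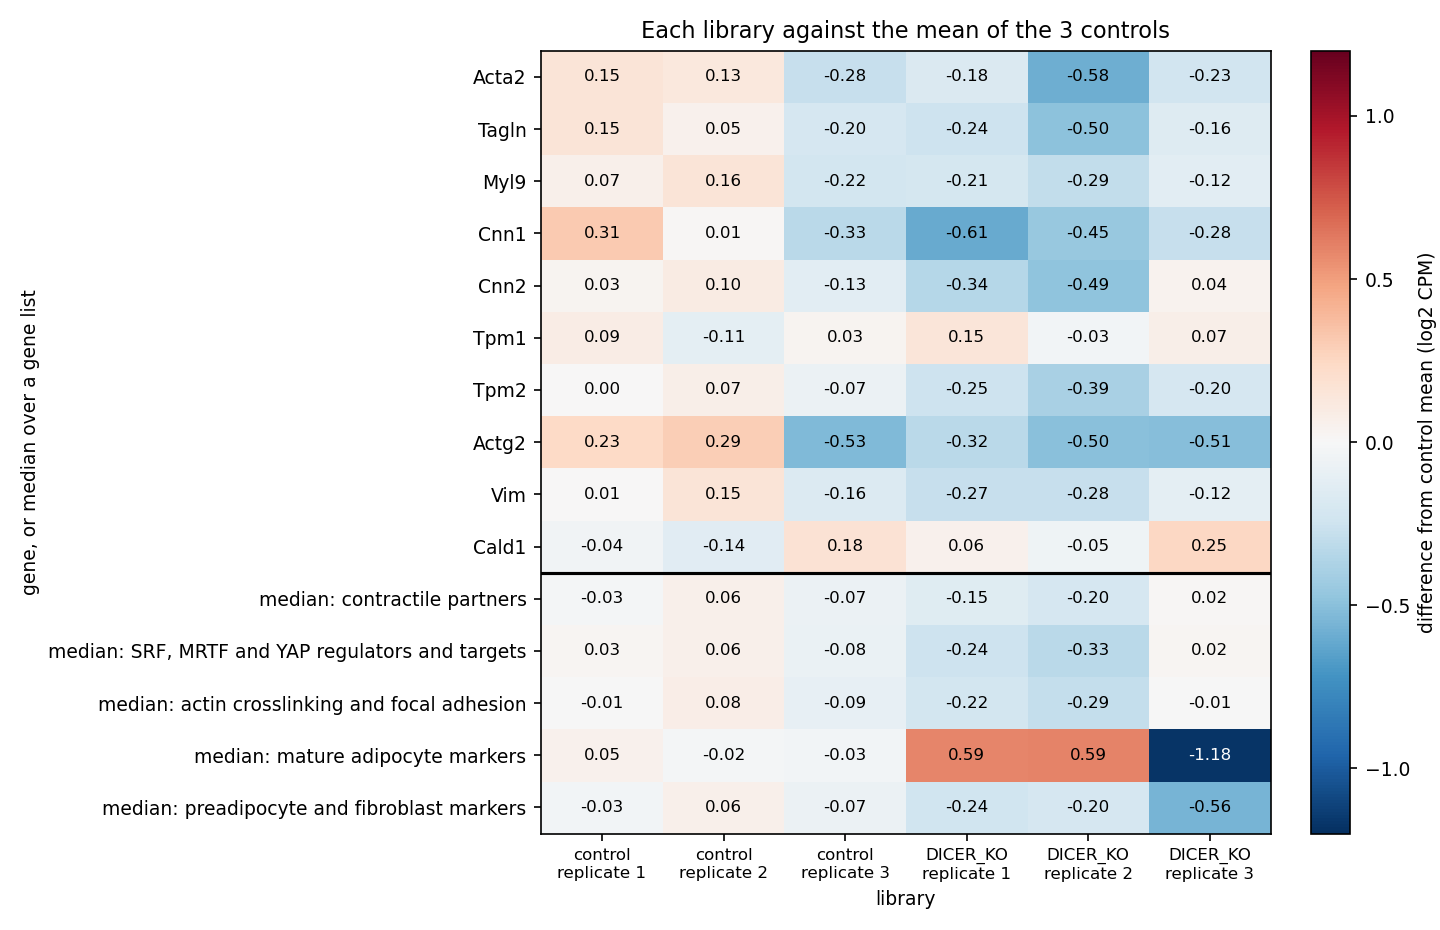
Difference from the mean of the 3 controls (log2 CPM, colour and printed values) for each of the 10 genes and, below the line, the median over 5 gene lists, in each library. DICER_KO replicate 3 stands out in the adipocyte markers (-1.18) and lies between -0.51 and 0.25 in the 10 genes.

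Per kilobase of exon, which allows genes to be compared, Vim was far above the rest with 1037 ± 112 CPM per kb in controls (SD, n = 3). Cald1 followed at 177 ± 20.1 CPM per kb, then Cnn2 at 138 ± 10.8, Tagln at 137 ± 16.8 and Acta2 at 129 ± 20.6. Cnn2, Tagln and Acta2 overlapped over the control libraries and their order is not resolved. The same holds for Tpm2 (74.3 ± 3.5) and Tpm1 (71.6 ± 5.03). Myl9 stood at 45.3 ± 6.04 CPM per kb, Actg2 at 8.0 ± 2.28 and Cnn1 at 2.38 ± 0.52. In CPM not divided by length, Vim alone made up 46.0 to 52.5% of the summed level of the 10 genes, and this sum was 4381 to 4846 CPM in controls and 3874 to 4547 CPM in DICER_KO. Lengths are the union of exons of protein-coding transcripts in GENCODE M21, so a gene of which the cells use a short isoform is understated.

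**Figure D4:**
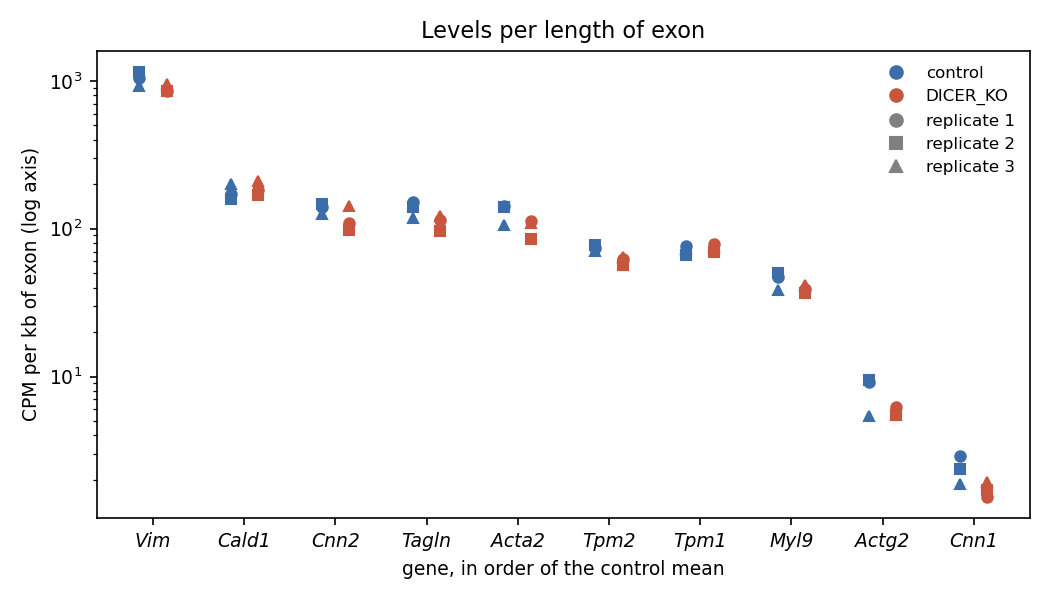
Level per length of exon (CPM per kb, log axis) of each gene in each library, in order of the control mean; colour gives the group and shape the replicate. Vim is highest at 1037 CPM per kb in controls and Cnn1 lowest at 2.38.

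Genes that work with the 10 members did not pass the test either, and the median difference was negative in each of the 5 lists given here. These lists held 84 further genes, of which 68 were in the table, 64 were tested and 0 rose or fell with all libraries (limma), beside 0.438% of all genes. At an unadjusted p under 0.05 there were 0 of 17 contractile partners, 4 of 14 genes of SRF, MRTF and YAP regulation, 6 of 17 genes of actin crosslinking and focal adhesion, 1 of 7 intermediate filament genes and 1 of 9 tubulins, beside 15.8% of all genes (7.35% lower). All of these had lower means in DICER_KO but 1 of the 6 adhesion genes, Tns1, which encodes tensin and had a difference of 0.38 (adjusted p = 0.307). The median differences were -0.13, -0.19, -0.17, -0.17 and -0.14 in that order. Without DICER_KO replicate 3 the counts that fell were 5, 6, 6, 3 and 3, and 0, 0, 1, 0 and 1 rose, in a comparison where 7.22% of all genes were lower and 12.5% higher.

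The contractile partner with the smallest p was Actg1, a cytoplasmic actin gene, which differed by -0.34 (adjusted p = 0.324) and fell by 0.50 without DICER_KO replicate 3 (adjusted p = 0.0061). Zyx, the focal adhesion gene of zyxin and a known SRF target, had the smallest p of the adhesion list. Zyx stood at 8.69, 8.84 and 8.46 log2 CPM in the controls; DICER_KO gave 7.88, 7.65 and 8.47, so replicate 3 alone reached the controls. The difference was -0.66 (SE 0.19, adjusted p = 0.161), and without replicate 3 Zyx fell by 0.90 (adjusted p = 8.98e-05). Ccn2, which encodes connective tissue growth factor, a target of YAP and SRF, differed by -0.52 (adjusted p = 0.252) and fell by 0.69 without that library (adjusted p = 0.00521). The keratin gene Krt19 differed by -0.66 (adjusted p = 0.153) and the neuronal-type tubulin gene Tubb3 by -0.45 (adjusted p = 0.280), and without DICER_KO replicate 3 they fell by 0.86 and 0.65 (adjusted p = 0.000627 and 0.00306).

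**Figure D5:**
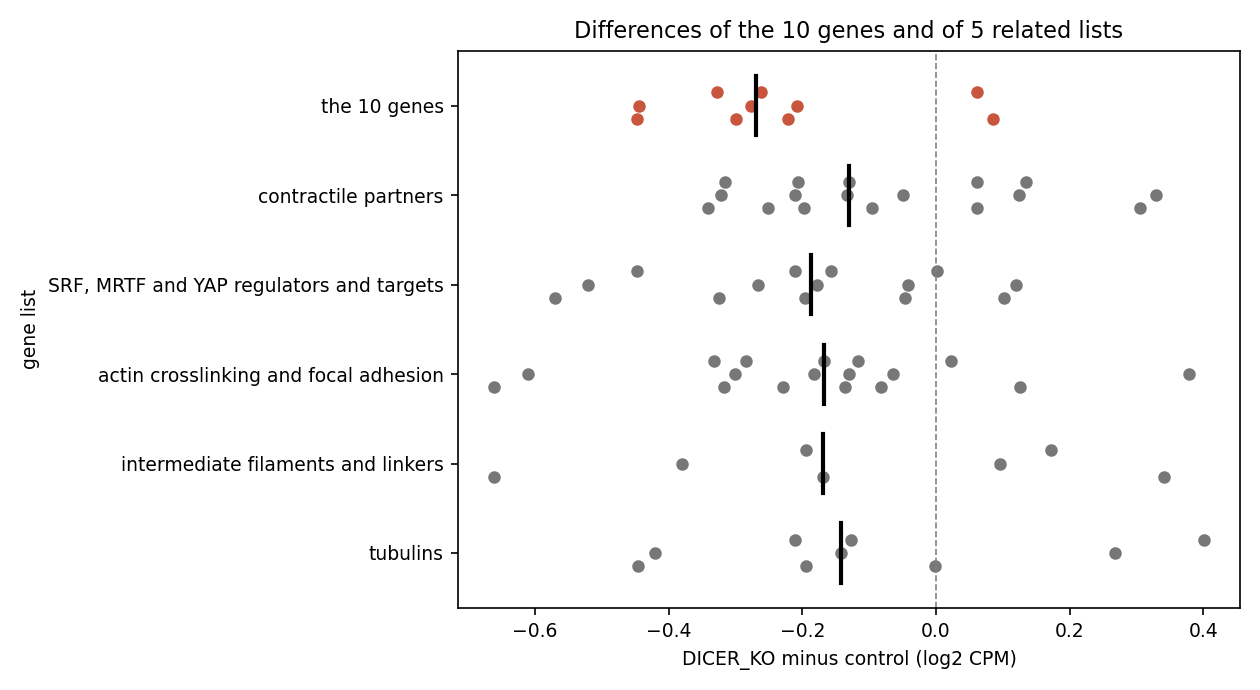
DICER_KO minus control (log2 CPM, horizontal axis) with all 6 libraries for the 10 genes and for 5 related lists; points are genes and black bars are medians. The medians run from -0.27 for the 10 genes to -0.13 for the contractile partners, and Krt19 and Zyx (both -0.66) have the lowest values.

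The pattern of Acta2 over the 6 libraries was most closely followed by Slc19a1, the folate carrier gene, with a Pearson correlation of 0.999 on the log2 scale. Next outside the group came Tmem39b (0.992), the ribosomal protein gene Rpl27 (0.988), Tomm34 (0.982) and the replication licensing gene Mcm7 (0.980). None of these 5 passed the test, with differences of -0.28 to -0.14. Ranked in the same way among 10034 genes with a symbol, Tagln was at place 15 (0.971), Myl9 at 99, Actg2 at 213, Tpm2 at 226, Vim at 400, Cnn2 at 617 and Cnn1 at 727. Tpm1 (-0.01) and Cald1 (-0.33) did not follow Acta2. These values describe 6 libraries that share the 2 groups and the same scaling.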

How the data were processed

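Poly(A) RNA of 3 control and 3 DICER_KO cultures was sequenced, per the labels. The authors deposited log2 CPM values, 1 column a library and 0 columns of other samples; FastQC, Trimmomatic, HISAT2, featureCounts, edgeR and the builds mm10 and GRCm38 are named in the submitters' processing notes, without versions. Every value gave a whole number of reads (100% at a tolerance of 0.01 reads) with an offset of 0.5 reads. Use of strand is not stated, so antisense genes cannot be told apart. Reads on genes of the table were from 71.5% (DICER_KO replicate 3) to 77.1% (DICER_KO replicate 1) of the library size that the values imply. Entrez IDs were matched to RefSeq symbols on GRCm38.p6 (13682 of 13734).

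The deposited log2 values of the 10054 genes that reached 1 CPM in 3 or more libraries were fitted with limma 3.58.1 (R 4.3.3), with an intensity trend and the group as the only term. P-values were adjusted by Benjamini-Hochberg over all genes tested, at a threshold of 0.05. The test was checked on simulated data. Alternatives changed the scaling, filter, pseudocount, test, replicate term and libraries. Named genes are the 10 members, Dicer1, the genes with the smallest p in each list where none passed, and the 5 genes most like Acta2 in pattern. Smooth muscle, adipocyte, preadipocyte, macrophage, pericyte, endothelial and skeletal muscle markers were also listed. Members and lists were chosen with earlier results of these data known; 16 of the 84 genes of the 5 lists are not analysed here, and 1 further list is not reported here. Python 3.11.15, numpy 2.4.6 and pandas 2.3.3 were used for other steps.

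Deviations from the group mean had correlations over genes of 0.20, -0.01 and -0.08 for same-numbered libraries. Libraries with different numbers gave -0.23 to 0.17. The numbers were not taken as pairs, though these values cannot settle whether the libraries were paired. Within a group, chi-square per degree of freedom of the reads was 8.36 to 92.8 for each pair of libraries. No library was thus deposited more than once within its group. Pairs across the groups were not compared in this way.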

Additional observations from a re-analysis of the deposited data

How the results depend on the processing

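Over 15 alternatives, 0 members rose. With 8 members the difference was negative under all 15, with Cald1 it was positive under all 15, and Tpm1 reversed to -0.034 with array weights. Members that fell numbered 8 with array weights and 0 to 3 over the fits that leave out a library, with 3 only without DICER_KO replicate 3. Array weights ran from 0.203 (DICER_KO replicate 3) to 7.54 (control replicate 1), their estimation stopped before it converged, and 2542 genes were called higher and 1942 lower. The robust fit called 23 higher and 47 lower. The fit with a replicate block called 0 higher and 2 lower. Whether the numbers pair the libraries is not known. Leaving out a library gave 0 to 1257 genes higher and 1 to 726 lower: 4 and 7 without control replicate 1, 3 and 7 without control replicate 2, 0 and 1 without control replicate 3, 7 and 12 without DICER_KO replicate 2, and 1257 and 726 without DICER_KO replicate 3. The cause was not tested. Depth limits Cnn1 most, at 71 to 215 reads a library.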

Other observations

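Markers of 4 other cell types were also measured. The 6 pericyte markers in the table summed to 271.8 to 339.7 CPM in controls and to 340.6, 365.6 and 247.3 CPM in DICER_KO replicates 1 to 3, most of it from Pdgfrb, with 3309 to 6609 reads a library, while Rgs5 had 9 to 15. With all libraries 0 of the 4 tested passed (limma, with Cspg4 alone at an unadjusted p under 0.05). Without DICER_KO replicate 3, Cspg4 rose by 0.78 (adjusted p = 0.000241) and Mcam by 0.58 (adjusted p = 0.000844). The 4 macrophage markers in the table summed to 23.9 to 29.0 CPM in controls and 29.0 to 32.2 CPM in DICER_KO. Cd68, a lysosomal protein gene, was the only 1 of them with a higher mean in DICER_KO. It differed by 0.39 (limma adjusted p = 0.163) and rose by 0.39 without DICER_KO replicate 3 (adjusted p = 0.0334). Csf1r differed by -0.16 (adjusted p = 0.704), and Lyz2 and Mrc1, which were below the filter, also had lower means in DICER_KO. The 5 endothelial markers summed to 5.54 to 6.41 CPM in controls and 6.85 to 8.88 CPM in DICER_KO. Neither of the 2 tested passed with all libraries. Without DICER_KO replicate 3, Tek rose by 0.68 (adjusted p = 0.0194) and Kdr, with 2 to 44 reads a library, fell by 2.07 (adjusted p = 0.0130). Of the skeletal muscle markers, Mylpf alone was in the table, at 0.597 to 1.17 CPM. The cardiac actin gene Actc1 had 0 reads in each control and 2, 1 and 4 reads in DICER_KO replicates 1 to 3, which is too few to compare.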
